A study of Mus musculus with 2 samples.

Results

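The interferon regulatory factors are a family of transcription factors, and 8 of their genes, Irf1, Irf2, Irf3, Irf4, Irf5, Irf7, Irf8 and Irf9, were followed here in RAW264.7 cells. RAW264.7 is a mouse macrophage-like cell line. All cells stably expressed the mouse nuclear receptor LXRalpha, introduced by chemical transfection, and the sources used here give neither the promoter of the construct nor the number of clones. Cells were cultured for 24 h either with the solvent DMSO or with a mixture of GW3965 (1 µM), which activates LXR, and LG268 (100 nM), which activates RXR, and RNA from each culture went to 1 Affymetrix mouse array. The members were all probe sets whose only gene symbol on the platform was that of a family gene, whatever their signals, which gave 14 of the 45101 probe sets and 8 of 18193 genes. A probe set is a group of short probes read as 1 signal, here in the arbitrary units of the MAS5 program. There were no replicates, so no test of any difference was possible, and every value below describes these 2 arrays.

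Interferon regulatory factors share an amino-terminal DNA-binding domain with a row of conserved tryptophans, which recognises GAAA repeats in the promoters of interferon-responsive genes. Some members wait in the cytoplasm until kinases activate them after pathogen sensing, some are themselves induced by interferon, and IRF4 and IRF8 set the identity of blood cells, often bound together with the Ets factor PU.1. In macrophages, IRF8 is required for normal differentiation, and earlier work on LXR agonists linked the induction of arginase 1 to PU.1 and IRF8. The comparison of the arrays asks which members differ when LXR and RXR are activated.

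The treatment and the cell type were checked first. The LXR target gene Abca1 read 2989 without and 81159 with the ligands, and Abcg1 5844 and 21913. The probe set of the introduced receptor gene, Nr1h3, read 3150 and 5577, and the sources used here do not say whether it sees the introduced or the endogenous transcript. All 8 macrophage markers on the list, among them Csf1r (127050 and 132072) and Cd68 (83652 and 103137), were above the signal floor of 276.4, the median of all probe sets other than controls. Their log2 ratios ran from -0.21 (Itgam) to 1.02 (Mpeg1, a pore-forming protein of macrophages), with Adgre1 at -0.15, Cd14 at -0.01 and Spi1 at -0.08. Of the T cell, B cell, granulocyte and fibroblast markers, Cd8a and Fbln1 exceeded the floor with DMSO only, at 411 and 456, Elane exceeded it with the ligands only, at 334, and the others lay below it on both arrays. Among the plasmacytoid dendritic cell markers, Bst2, Tcf4 and Klk1 were above the floor and the defining marker Siglech was not. The signals of that list summed to 15675 in the DMSO culture and 18398 in the ligand culture, but its members went opposite ways, with log2 ratios of 0.50 for Bst2, 0.22 for Tcf4 and -0.90 for Klk1. The list's part in the results below was not tested. In bulk RNA, fewer cells expressing a gene and less of its RNA per cell cannot be told apart.

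Irf8 was the family member that differed most. IRF8, also known as ICSBP, directs progenitors to the monocyte and macrophage lineage. Its brighter probe set read 9549 in the DMSO culture and 16256 in the ligand culture. The other read 8265 and 14756. Both probe sets were thus higher on the ligand array, by 1.70-fold and 1.79-fold, or log2 ratios of 0.77 and 0.84. They were designed from the same sequence record, so they are repeated readings of 1 transcript rather than independent ones.

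No replicate error exists for these ratios, and the nearest substitute is the disagreement between probe sets of 1 gene on the same arrays. In 4866 genes, at least 2 probe sets exceeded the floor in both cultures, and from their disagreement a single log2 ratio had an SD of 0.28. It was 0.21 over the 2603 genes whose 2 probe sets had a brighter signal above 2186, the 75th percentile. Both Irf8 ratios exceeded these SDs, which cover measurement within the arrays and not the variation between cultures.

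The family was counted by the brightest probe set of each gene, calling a gene measured when its higher signal was above the floor. Of the 8 genes, 7 were measured, and all 7 were above the floor on both arrays. None of the 7 was at least 2-fold higher, against 1.67% of the 11077 measured genes, and none was at least 2-fold lower, against 0.776%. At 1.5-fold, 1 member was higher, Irf8, against 6.36% of all measured genes, and none was lower, against 4.77%. A single gene of 7 is no result about the family as a whole. Against the genes themselves, Irf8 stood high without being extreme, since 385 measured genes, 3.48%, had a larger ratio. Among the 6967 genes with a brighter signal above 2186, as Irf8 had, 4.15% were at least 1.5-fold higher. Of 5401 genes with 2 or more measured probe sets, 2.18% had both of the brightest at least 1.5-fold higher, as Irf8 had.

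**Figure D1:**
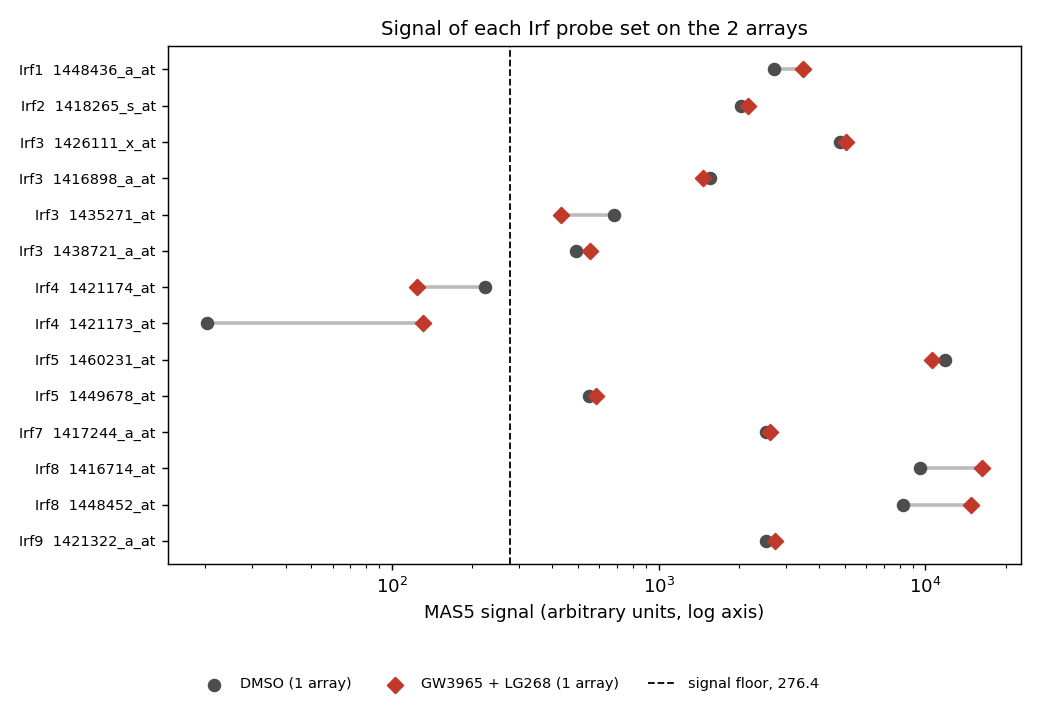
MAS5 signal (log axis, arbitrary units) of each of the 14 probe sets of the family on the DMSO array (grey circles) and the ligand array (red diamonds), with the signal floor of 276.4 as a dashed line. The 2 probe sets of Irf8 show the same shift to the right, both probe sets of Irf4 lie left of the floor, and most other pairs nearly coincide.

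The promoter of Irf8 is shown because it belongs to the member that differed, and that of Irf1 because it has the next ratio and shares a motif with it. The windows run from 250 bases before to 50 bases after an annotated start, 5′ to 3′, from RefSeq on GRCm38.p6, and all 8 genes matched, with 11 windows in all. Capitals mark TTCNNNGAA, the core of the gamma-activated sequence that STAT dimers bind, which reads the same on both strands.

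Irf8, chr8:120736108-120736407, plus strand: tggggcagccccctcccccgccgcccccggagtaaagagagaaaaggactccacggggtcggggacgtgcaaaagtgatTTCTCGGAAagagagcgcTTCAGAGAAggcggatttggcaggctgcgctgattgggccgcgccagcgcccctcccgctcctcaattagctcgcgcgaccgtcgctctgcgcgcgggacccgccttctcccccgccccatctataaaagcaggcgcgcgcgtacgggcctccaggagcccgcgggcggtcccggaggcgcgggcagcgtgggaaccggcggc
Irf1, chr11:53769764-53770063, plus strand: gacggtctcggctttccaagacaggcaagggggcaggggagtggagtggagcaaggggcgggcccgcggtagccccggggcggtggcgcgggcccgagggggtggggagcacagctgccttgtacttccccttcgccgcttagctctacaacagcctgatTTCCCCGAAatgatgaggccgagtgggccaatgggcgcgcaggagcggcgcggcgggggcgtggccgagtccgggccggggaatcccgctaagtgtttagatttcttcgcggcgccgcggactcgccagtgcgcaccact

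The Irf8 window held 2 matches, starting 171 and 153 bases before the start site, and the Irf1 window held 1, starting 90 bases before it. The second annotated start of each of these genes had none. Over the family, 3 of the 11 windows held the motif, those of Irf8, Irf1 and Irf2, and 8.30% of all 32851 promoter windows did. Irf2 is the member with the motif whose log2 ratio was nearest to 0, at 0.09.

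Motifs of the factors themselves were sought on both strands. The core of the interferon-stimulated response element, GAAANNGAAA, occurred in 1 family window, that of Irf2, and in 3.44% of all windows. The Ets-IRF composite element, GGAANNGAAA, which PU.1 and IRF4 or IRF8 bind together, was also found in the Irf2 window alone, and in 2.72% of all windows. Both are shown in capitals in the Irf2 promoter, where they overlap, followed by the STAT motif.

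Irf2, chr8:46739495-46739794, plus strand: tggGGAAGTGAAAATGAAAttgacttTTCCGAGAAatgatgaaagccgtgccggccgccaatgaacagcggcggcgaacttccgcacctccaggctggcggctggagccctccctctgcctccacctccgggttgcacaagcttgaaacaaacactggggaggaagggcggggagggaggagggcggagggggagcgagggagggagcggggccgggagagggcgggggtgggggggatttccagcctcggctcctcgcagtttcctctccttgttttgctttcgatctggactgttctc

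A direct repeat of AGGTCA with a spacer of 4 bases, the type of site LXR and RXR bind together, was in no family window and in 0.0152% of all windows. The repeat with a spacer of 1 base, bound by RXR with other partners, was likewise in no family window and in 0.0396% of all windows. These exact letters are stricter than the sites the receptors accept, and the windows are short, so the search describes the sequences and nothing else.

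Irf4, the closest relative of Irf8 and a factor of lymphocytes and of dendritic cells, was not above the floor on either array. Its 2 probe sets had signals of 224 and 125, and of 20.3 and 131, with DMSO and with the ligands in that order. The first was lower and the second higher on the ligand array, and below the floor such values have no order, so no fold is given at this floor.

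Irf1, an activator of interferon-gamma responses and antigen processing, read 2696 with DMSO and 3484 with the ligands in its single probe set. That is 1.29-fold higher on the ligand array. Its log2 ratio of 0.37 was larger than the probe set SD of 0.28, but 13.2% of all measured genes had a larger ratio. Irf2, which competes with IRF1 for its sites and represses many of its targets, had 2030 and 2166, a log2 ratio of 0.09. The Irf2 probe set is of the type _s_at, which can also read other transcripts.

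Irf3, the ubiquitous factor that kinases activate after nucleic acid or lipopolysaccharide sensing, was read by 4 probe sets, which did not move together. The brightest had 4773 with DMSO and 5024 with the ligands, and the next had 1552 and 1472. The dimmest had 489 and 553. Only the third was more than 1.5-fold apart, with 679 and 431, lower on the ligand array by 1.58-fold. That probe set has no sequence record in the platform annotation, and the log2 ratios of the other 3 lay between -0.08 and 0.18. The brightest probe set is of the type _x_at, which can read similar sequences of other genes. The next brightest is not of that type, and its ratio has the other sign, -0.08 against 0.07. No direction is therefore given for Irf3.

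Irf5, which drives inflammatory cytokine genes in macrophages, had 11801 with DMSO and 10551 with the ligands in its brighter probe set, a log2 ratio of -0.16. The dimmer probe set had 550 and 583, a ratio of 0.08, so its probe sets differed in sign and both ratios were smaller than the probe set SD. Irf7, the factor that amplifies type I interferon production, had 2534 and 2614 in its single probe set, a log2 ratio of 0.04. Irf9, the DNA-binding subunit of the interferon-activated complex ISGF3, had 2526 and 2728 and a log2 ratio of 0.11. For Irf7 and Irf9, genes known to be raised by interferon, the arrays thus differed by less than the probe sets of 1 gene commonly do.

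**Figure D2:**
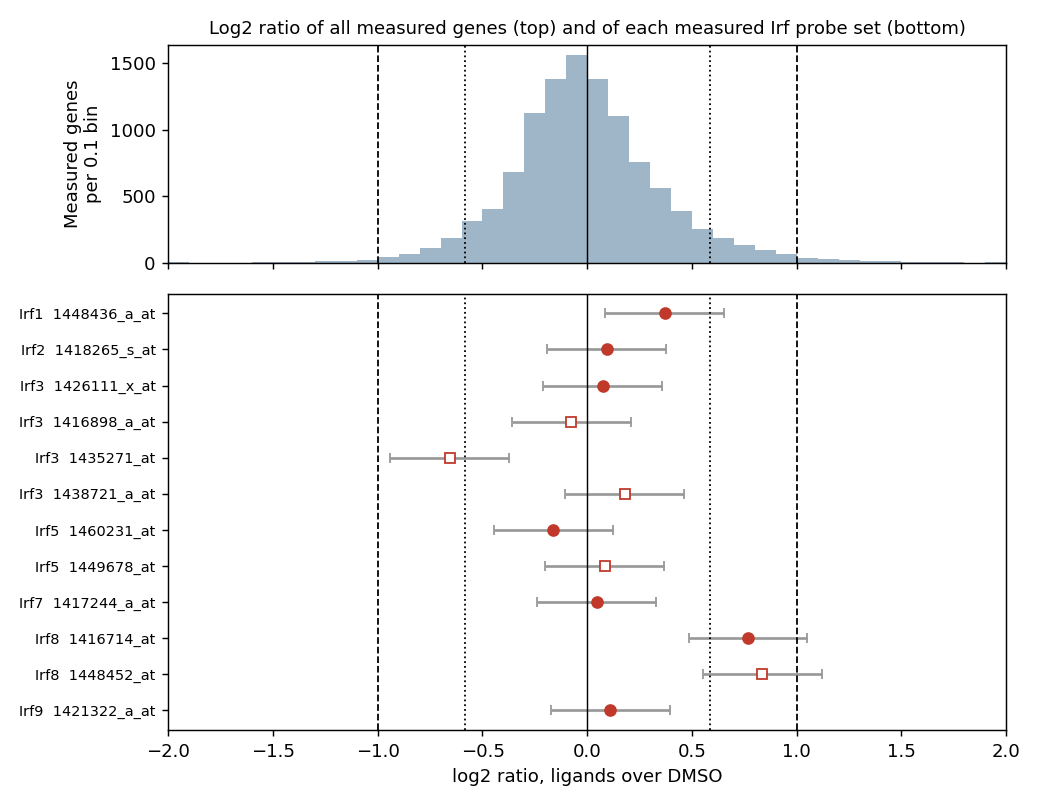
Log2 ratio between the arrays, ligands over DMSO, for all 11077 measured genes (top, genes per bin of 0.1, shown from -2 to 2) and for the 12 measured probe sets of the family (bottom; filled circles, brightest probe set of a gene; open squares, its other probe sets). Bars are the probe set SD of 0.28, dotted lines 1.5-fold and dashed lines 2-fold; the pair for Irf8 lies at 0.77 and 0.84, and 9 of the other 10 lie within 1.5-fold.

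By the brightest probe set of each gene, 6 of the 7 measured genes had a positive ratio and 1 a negative one. With Irf3 turned, as it is without its _x_at probe set (-0.08) or with its probe sets averaged (-0.12), 5 would be positive. Their median log2 ratio was 0.09, and that of all measured genes was -0.03. Without Irf8, the 6 remaining ratios ran from -0.16 to 0.37, with a median of 0.08. That whole span lies between the 10th and the 90th percentile of all measured genes, -0.43 and 0.45. At the level of probe sets, 12 of the 14 were measured. Of these, 2 were at least 1.5-fold higher, both of Irf8, and 1 was at least 1.5-fold lower, that of Irf3 described above. The share over all probe sets was not computed. By gene, 6.36% of all measured genes were higher and 4.77% lower by that much. The 2 probe sets of Irf8 read 1 transcript, so these counts are no result about the family.

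Genes that act before, with and after these factors were read from 6 lists, which held 97 genes on the array and 72 measured ones. Of the 72, 9 were at least 1.5-fold higher, or 12.5%, beside 6.36% of all measured genes, and 2 were at least 1.5-fold lower, or 2.78%, beside 4.77%. At 2-fold the counts were none higher and 2 lower. The median log2 ratio was 0.08. The lists were chosen with earlier results of these data known, so their shares only describe the genes listed. Dhx58, Ifih1, Il12b and Usp18 stand in 2 lists each and are counted once here, and 11 further names were not analysed here.

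The sensors, adaptors and kinases that activate IRF3, IRF5 and IRF7 had 18 measured members, with a median log2 ratio of 0.09. Of the 18, 4 were at least 1.5-fold higher, beside 6.36% of all measured genes, and none was lower, beside 4.77%. Ikbke, an IRF3 and IRF7 kinase, had 2959 with DMSO and 5257 with the ligands in its single measured probe set, 1.78-fold higher. Sting1, the adaptor for cyclic dinucleotides, had 3903 and 6652, 1.70-fold higher, with a log2 ratio of 0.55 in its other probe set. Dhx58, the RNA helicase LGP2, had 1805 and 3027, 1.68-fold higher, but its other 2 probe sets had log2 ratios of -0.06 and 0.86. Mavs, the mitochondrial adaptor of RNA sensing, had 4033 and 6223, 1.54-fold higher, and 0.40 in its other probe set. Other members that sense nucleic acids in the cytosol did not share this direction at 1.5-fold, with log2 ratios of -0.42 for the DNA sensor Cgas, -0.07 for the RNA sensor Ifih1 and 0.24 for the RNA sensor Ddx58. Tbk1, the other IRF3 kinase, had -0.09, and -0.37 in its other probe set. Myd88, the Toll-like receptor adaptor that leads to IRF5 and IRF7, had -0.15. The endosomal RNA sensor Tlr7 had 0.35 in its brightest probe set and 0.67 and 0.81 in the other 2.

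Of the interferon receptors and the JAK-STAT partners of IRF9, 13 were measured, with a median of 0.05. Of these, 2 were at least 1.5-fold higher, beside 6.36% of all measured genes, and none was lower, beside 4.77%. Both were chains of the interferon-gamma receptor. Ifngr1, its ligand-binding chain, had 3467 with DMSO and 6830 with the ligands, 1.97-fold higher in a single measured probe set. Ifngr2 had 3933 and 6288, 1.60-fold higher, but -0.04 on the log2 scale in its other probe set. Socs3 fell just short of being counted as lower, with 2189 and 1460, 1.4996-fold lower. Its other 2 probe sets went the other way, with log2 ratios of 0.40 and 0.50. With quantile normalization, 3 genes of this list were at least 1.5-fold apart. The type I receptor chains Ifnar1 and Ifnar2 had log2 ratios of 0.12 and 0.23 in their brightest probe sets. The other probe set of Ifnar1 had -0.05, and the other 2 of Ifnar2 had 0.19 and 0.51. The kinase Jak1 had 0.05, with -0.06 and 0.54 in its other 2 probe sets. The IRF9 partner Stat2 had 0.02, with 0.29 in its other probe set.

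Among partners and binding proteins of the factors, 13 were measured, with a median of -0.03. None was at least 1.5-fold higher, beside 6.36% of all measured genes, and 1 was lower, beside 4.77%. The lower gene was Ets2, an Ets-family transcription factor, which had 14553 with DMSO and 6937 with the ligands, 2.10-fold lower, and a log2 ratio of -1.98 in its other probe set. With the lower floor at the 25th percentile, 2 partners were at least 1.5-fold apart. Spi1, which encodes PU.1, the partner of IRF8 and IRF4, had 24651 and 23272, a log2 ratio of -0.08 from a single probe set. The ratio of this partner was thus smaller than the probe set SD, and those of Irf8 were larger.

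Known targets of interferon and of IRF3, IRF7 and IRF9 had 20 genes on the array and 13 measured ones, with a median of 0.04. Ifit1, Ifit3, Mx1, Mx2, Oasl2, Ccl5 and Ifna4 were below the floor on both arrays. Of the 13, Dhx58 alone was at least 1.5-fold higher, beside 6.36% of all measured genes, and none was lower, beside 4.77%. Oas1a, an antiviral oligoadenylate synthetase, had 11537 and 11730. Ifnb1, the type I interferon gene itself, had 292 with DMSO, just above the floor, and 205 with the ligands, below it. The count of genes at least 1.5-fold apart in this list was 6 rather than 1 with the floor at the 25th percentile, where dim genes enter. Targets of IRF1, IRF2 and IRF8 also had 20 genes on the array and 13 measured ones, with a median of 0.20. Of these 13, 1 was at least 1.5-fold higher and none lower, beside the same shares of all measured genes. With that lower floor, 5 were at least 1.5-fold apart. At the floor used here, the higher gene was Psmb9, an immunoproteasome subunit, with 3849 and 6332, 1.65-fold higher. The count goes by the brightest probe set, and Bcl2l1 had a log2 ratio of 0.38 there but 0.53 and 1.31 in its other 2 probe sets. Cybb, the NADPH oxidase subunit known as an IRF8 and PU.1 target, had 29931 and 31420, a log2 ratio of 0.07. The other 2 probe sets of Cybb had -0.24 and 0.22. Ncf1, a cytosolic subunit of the same enzyme, had 59057 and 84887, a ratio of 0.52 with 0.48 and 0.65 in its other 2 probe sets.

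Targets of IRF4 and IRF5 were mostly not above the floor, with 5 of 14 measured. Among these, 2 were at least 1.5-fold higher, beside 6.36% of all measured genes, and 1 was lower, beside 4.77%. Tnf, the cytokine, had 7871 with DMSO and 3816 with the ligands, 2.06-fold lower. Mrc1, the mannose receptor, had 278 and 444, 1.60-fold higher at signals near the floor, and Il1b had 176 with DMSO, below the floor, and 430 with the ligands, at least 1.56-fold higher. The median of these 5 was 0.48, a value that rests on few and dim genes. It is the ratio of Cxcl1, whose other measured probe set had the opposite sign, at -0.50. Of the 5, 1 gene, Tnf, remained at least 1.5-fold apart with the floor at the 75th percentile. Arg1, which encodes arginase 1, had 59.2 and 10.9, below the floor on both arrays.

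**Figure D3:**
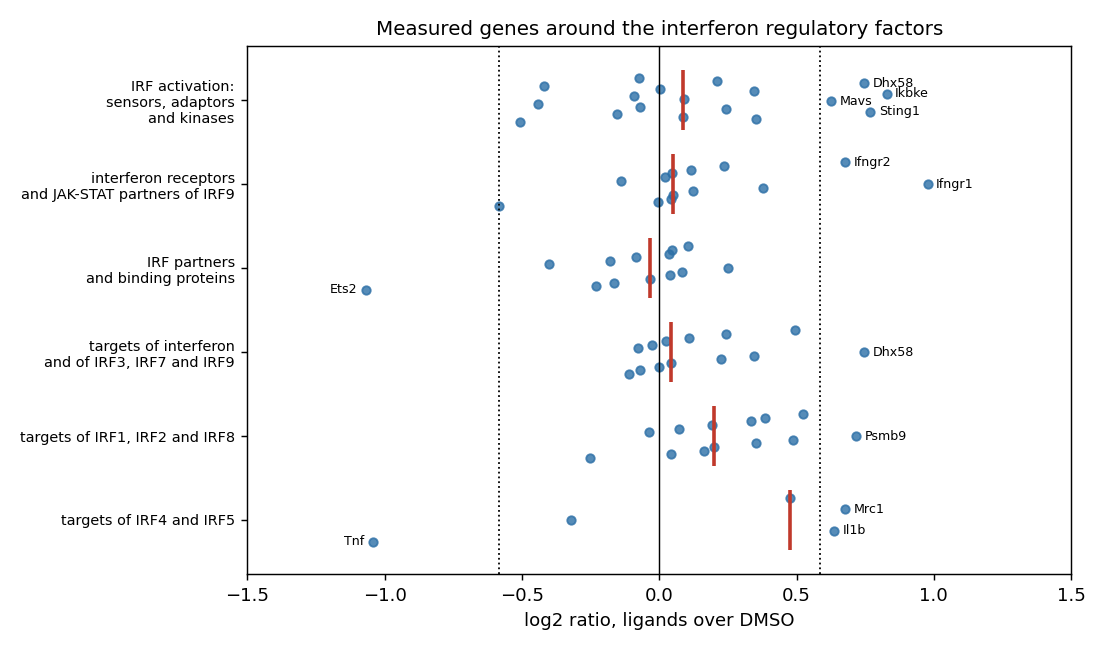
Log2 ratio between the arrays, ligands over DMSO, for the measured genes of 6 lists around the interferon regulatory factors, 1 point per gene by its brightest probe set (vertical spread within a row has no meaning). Red bars are list medians, from -0.03 to 0.48, dotted lines mark 1.5-fold, and the genes beyond them are named, from Tnf and Ets2 on the left to Ifngr1 on the right.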

How the data were processed

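RNA from 2 cultures was hybridised to 1 Affymetrix array each. The deposited values are linear intensities, 1 per probe set, computed by MAS5 according to the labels (per the submitters' processing notes). Both arrays had a 2% trimmed mean of 2500, so the ratios are relative to the bulk of the array. The values were used as deposited.

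Of 45101 probe sets, 34945 with 1 platform gene symbol were used, with 34741 symbols updated by gene identifier to GRCm38.p6. Signals below the floor were set to it before log2 ratios were taken. With 1 array per group there was no test. Every probe set of a member is reported; in a list, up to 4 genes are named, those furthest apart among genes at least 1.5-fold apart, and other genes quoted were chosen after their values were seen. The members and lists were chosen with earlier results of these data known. Alternatives were other floors, log2(signal + 32), quantile normalization, centring, averaging probe sets, leaving out _s_at and _x_at probe sets, and other thresholds. The procedure was tested on simulated data, with changes of 3-fold or more in genes well above the floor, called at 2-fold. Smaller changes, calls at 1.5-fold and genes near the floor were not covered by that test. Python 3.11.15, numpy 2.4.6 and pandas 2.3.3 were used.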

Additional observations from a re-analysis of the deposited data

How the results depend on the processing

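The log2 ratio of Irf8 lay between 0.77 and 0.80 under all 7 alternatives that give a ratio. No Irf gene was 2-fold higher or lower under any of these 7 or at the threshold of 3-fold, and at the threshold of 1.5-fold 1 was higher. All 47 member ratios under these alternatives moved by less than the probe set SD, although that of Irf3 took the other sign, at -0.08 without _s_at and _x_at probe sets and at -0.12 with averaged probe sets. Irf2 had no value without _s_at and _x_at probe sets or with the floor at the 75th percentile. Irf4 is not among the 47, since it had no ratio at the floor used here. With the floor at the 25th percentile or none, 8 Irf genes counted as measured, Irf4 with them. Its brighter probe set, at 224 and 125, was then lower on the ligand array, with a log2 ratio of -0.84 if no floor is applied. The dimmer Irf4 probe set went the other way. The counts of list genes at least 1.5-fold apart were less stable, and 30 of 42 stayed within 1.5 times. Of the other 12, 9 came with another floor or none, which changes which dim genes count, and 3 with averaged probe sets. Interferon targets of IRF3, IRF7 and IRF9 went from 1 gene to 6 with the floor at the 25th percentile and without a floor, and to 0 with the floor at the 75th percentile and with averaged probe sets. Targets of IRF1, IRF2 and IRF8 went from 1 to 5 with the lower floor, 6 without a floor and 2 with averaging. Targets of IRF4 and IRF5 went from 3 to 1 with the higher floor and 7 without one, partners from 1 to 2 with the lower floor or none, and receptors and JAK-STAT genes from 2 to 1 with averaging. Signals near or below the floor, such as those of Irf4, are limited by background, and the number of arrays limits all values.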

Other observations

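The genes next to the family members in the genome were read as well, taking the nearest measured protein-coding gene on each side in the order of the GRCm38.p6 annotation. None of the 16 neighbours was at least 1.5-fold apart, beside 6.36% of all measured genes higher and 4.77% lower by that much. With so few genes, that count is no result about the neighbours. Their log2 ratios ran from -0.53 (Scaf1, beside Irf3) to 0.54 (Kcp, beside Irf5). On the sides of Irf8, Cox4i1, a subunit of cytochrome c oxidase, read 115363 in the DMSO culture and 115987 in the ligand culture, a log2 ratio of 0.01. Mthfsd, on the other side, had 1976 and 2181, a ratio of 0.14. The difference in Irf8 was larger than in either gene beside it, by single readings on these arrays. Irf8 was singled out as the member that differed most, so this comparison was not an even one. Whether the difference is particular to the gene was not tested.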
